A study of Homo sapiens with 18 samples.

Results

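The genes examined were 10 writers, erasers and readers of N6-methyladenosine (m6A), chosen by name and matched to the tables by Ensembl identifier: METTL3, METTL14, WTAP, FTO, ALKBH5, YTHDF1, YTHDF2, YTHDF3, YTHDC1 and IGF2BP2. All 10 were found among the 58302 genes of the expression table, and all 10 reached an FPKM of 1 in 3 or more libraries, as did the 12982 genes that were tested. FPKM is the number of fragments counted on a gene, scaled by its length and by the reads of the library. The question was whether loss of NAT10, the enzyme that acetylates cytidine in RNA, went with a change in a separate RNA modification system.

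The samples were PANC-1 cells, an established line from a human pancreatic ductal carcinoma, carrying lentiviral shRNA vectors. One group carried a vector that knocked down NAT10 (shNAT10, NAT10-KD) and the other a control vector (shCtrl), both as stable lines. The labels call the control empty, whereas the study's list of oligonucleotides names a non-targeting shRNA. Each group had 3 RNA-seq libraries, and 3 immunoprecipitated (IP) and 3 input libraries of acRIP-seq, in which fragmented RNA is pulled down with an antibody against N4-acetylcytidine (ac4C). Which NAT10 hairpin was used is not given in the sources used here. The labels do not say whether replicates came from separate cultures, so p-values measure only the spread between these libraries, which may be technical.

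m6A is a methyl mark on adenosines of mRNA. A complex of METTL3, the catalytic subunit, METTL14, which holds the RNA, and WTAP, which ties the pair to further subunits, writes it in the nucleus. FTO and ALKBH5 are demethylases that remove it, and reader proteins bind it: YTHDF1, YTHDF2 and YTHDF3 in the cytoplasm, where YTHDF2 recruits machinery that degrades mRNA, YTHDC1 in the nucleus, and IGF2BP2 as a binding protein that stabilizes its targets. The marks placed by NAT10 and by METTL3 are separate chemistries on different bases.

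The reads recovered from the FPKM values lay between 15964222 and 23718069 per library. NAT10 itself had FPKM values of 31.6, 27.7 and 28.6 in shCtrl and 7.92, 8.43 and 7.90 in shNAT10, a log2 fold change of -1.84 (SE 0.08, limma adjusted p 3.85e-05). The 5 ductal epithelial markers (KRT7, KRT8, KRT18, KRT19 and SOX9) were each at 1 FPKM or more in every library, and their sum was 2823 to 3781 FPKM in shCtrl and 1513 to 1694 FPKM in shNAT10. The summed acinar, islet, hematopoietic and endothelial markers stayed at or below 0.320 FPKM. The 4 fibroblast markers summed to 28.7 to 34.0 FPKM in shCtrl and 17.3 to 20.8 FPKM in shNAT10, with COL1A1 the single marker of the 4 at 1 FPKM or more in all libraries, and the 3 neuronal markers to 5.96 to 7.62 and 5.18 to 5.23 FPKM. These sums moved with the groups, and their part in the results was not tested. All libraries came from the PANC-1 line and not from a mixed tissue. In bulk RNA, fewer cells expressing a marker and less of its RNA per cell cannot be told apart. shCtrl replicate 2 differed most from the other libraries of its group, with an SD of 0.46 in log2 FPKM over 12982 genes. The SD was 0.41 for shCtrl replicate 1, 0.29 for shCtrl replicate 3 and 0.32 to 0.33 for the shNAT10 libraries. The difference of shCtrl replicate 2 had a Spearman correlation of -0.53 with transcript length and 0.49 with GC content. For shCtrl replicates 1 and 3 the correlations were 0.49 and 0.32 with length, and -0.38 and -0.46 with GC content. Both of these were compared with a pair that includes shCtrl replicate 2. In shNAT10 they ran from -0.20 to 0.20 and from -0.43 to 0.31. These values describe genes, which are not independent. Counts of calls, and the changes of the 10 genes that rest on shCtrl replicate 2, are therefore given with and without it.

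Of the 10 genes, 2 differed between the groups at an adjusted p under 0.05 in limma, beside 42.0% of all genes tested. YTHDF1 fell and YTHDF2 rose, while no writer and no eraser passed the test. None of the 10 changed by more than 1 on the log2 scale, which together with the adjusted p was met by 6.48% of the genes tested. In the direction of each call, 20.8% of all genes were higher and 21.2% lower. Without shCtrl replicate 2 the count was 3 of 10 (WTAP added), beside 51.0% of all genes. The log2 fold changes ran from -0.35 to 0.31 with a median of 0.02, and the median over all tested genes was -0.01. The values of the groups did not overlap for 5 of the 10 beside 56.5% of all genes tested. METTL3, YTHDF2 and IGF2BP2 lay higher in shNAT10, as 27.9% of all genes did, and WTAP and YTHDF1 lower, as 28.6% did. An exact two-sided permutation test of 3 against 3 libraries cannot go below p = 0.1, the value reached by these 5 genes.

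**Figure D1:**
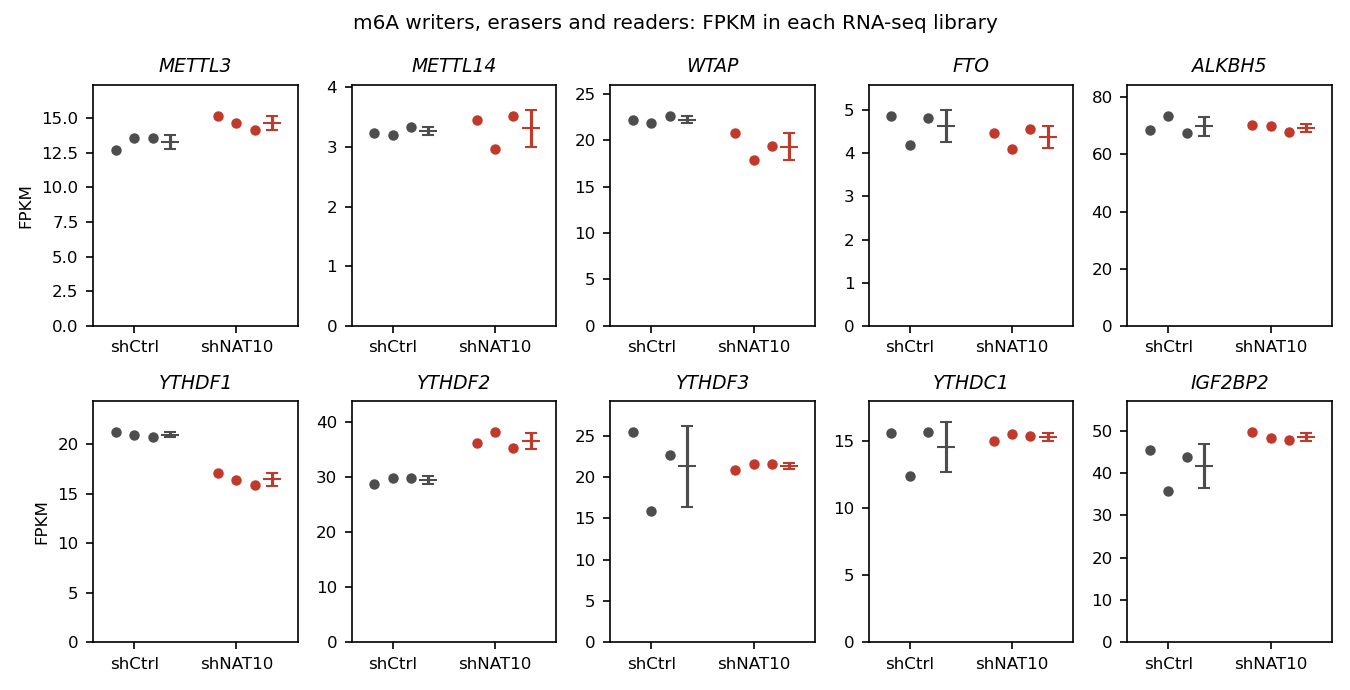
FPKM (vertical axes, starting at 0, one scale per gene) of the 10 genes in the 3 shCtrl libraries (grey points) and the 3 shNAT10 libraries (red points), with the mean and SD of each group beside them. YTHDF1 and YTHDF2 show separated groups, from 20.7 to 21.2 against 15.8 to 17.1 FPKM and from 28.7 to 29.9 against 35.3 to 38.1 FPKM.

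The levels spanned a wide range. ALKBH5 was the highest of the 10 in shCtrl at 69.8 ± 3.22 FPKM (SD, n = 3), followed by IGF2BP2 at 41.6 ± 5.16 and YTHDF2 at 29.4 ± 0.670 FPKM. WTAP, YTHDF3 and YTHDF1 came next with means of 22.2, 21.3 and 20.9 FPKM, and the range of YTHDF3 overlapped both of its neighbours. YTHDC1 at 14.5 FPKM and METTL3 at 13.3 FPKM also overlapped, and FTO at 4.62 FPKM and METTL14 at 3.26 FPKM were the lowest, each separate from the next. In shNAT10 the first 3 and the last 4 places were held by the same genes in the same order, and YTHDF3, WTAP and YTHDF1 stood in the fourth to sixth places with separate ranges.

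Among the writers, METTL3 (chr14:21498133-21511375, minus strand) had FPKM values of 12.7, 13.6 and 13.5 in shCtrl and 15.1, 14.6 and 14.1 in shNAT10. Every shNAT10 library lay above every shCtrl library, but the log2 fold change of 0.14 (SE 0.07, 95% interval -0.02 to 0.30) did not pass the test (limma adjusted p 0.136). METTL14 (chr4:118685368-118715433, plus strand), its partner, had values of 3.24, 3.21 and 3.34 in shCtrl and 3.45, 2.96 and 3.52 in shNAT10, so the groups overlapped, with a log2 fold change of 0.02 (95% interval -0.23 to 0.26, adjusted p 0.912 in limma). WTAP (chr6:159725585-159756319, plus strand) had values of 22.1, 21.9 and 22.6 in shCtrl and 20.7, 17.9 and 19.4 in shNAT10. The groups of WTAP did not overlap, and its log2 fold change of -0.20 (SE 0.07, 95% interval -0.38 to -0.03) had a limma adjusted p of 0.0658, which became 0.0382 without shCtrl replicate 2. Within each library the ratio of METTL3 to METTL14, both per length, was 3.91, 4.22 and 4.05 in shCtrl and 4.39, 4.94 and 4.01 in shNAT10, overlapping between groups (exact two-sided permutation p 0.3). The ratio of WTAP to METTL3 was 1.75, 1.61 and 1.67 in shCtrl and 1.37, 1.22 and 1.37 in shNAT10. It was lower in all 3 knockdown libraries (exact two-sided permutation p 0.1, the smallest the design allows). That outcome was fixed by the non-overlapping groups of METTL3 and WTAP above, so it adds no evidence to them.

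The acRIP-seq files hold 1 list of peaks per group, 16892 for shCtrl and 15813 for shNAT10, each peak having a p-value and a fold enrichment. The fold is taken here as IP over input, but how replicates were pooled and how input entered it are not given in the sources used here, which bears on the largest folds below. Replicates cannot be compared, and no test of a peak was made. A gene absent from a list had no peak called, and the reads behind the peaks are unknown. On the writers, METTL3 had no peak in either list. METTL14 had 1 peak in the shCtrl list, at chr4:118694505-118700594 on 3 exon blocks with its midpoint in the coding sequence (CDS), with a fold enrichment of 582 that lay at the 86.1th percentile of that list, and none in the shNAT10 list. A peak in shCtrl and none in shNAT10 was seen for 15.8% of all tested genes, and for 17.8% of those within the range of mean FPKM of the 10 genes. WTAP had 1 peak in shCtrl and 3 in shNAT10. Its shCtrl peak at chr6:159755901-159756050 lay in the 3′ UTR and was covered along its whole 150 nt by a shNAT10 peak at chr6:159755841-159756140, with fold enrichments of 39.9 and 647. The other shNAT10 peaks on WTAP lay in 3′ UTRs of shorter isoforms with fold enrichments of 7.71 and 21.1.

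The peak sequences were searched, on the RNA strand alone, for CNNCNNCNNCNN, a run of 4 triplets that each begin with C, a pattern known from ac4C work. A match is a description and not a site. The following 30 bases from GENCODE transcripts on GRCh38, 5′ to 3′, are shown for the peaks of highest fold enrichment on the writers, where the pattern was not found over the whole peak, so that no letters are in capitals.
METTL14 shCtrl peak, chr4:118697265-118697294, plus strand: aagaatattacagagaaactggcatcactg
WTAP shCtrl 3′ UTR peak, chr6:159755961-159755990, plus strand: tagaatctgtgctgtgtaagggcattcgta
WTAP shNAT10 3′ UTR peak, chr6:159755976-159756005, plus strand: gtaagggcattcgtactcatgctgttactg

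Neither eraser passed the test. ALKBH5 (chr17:18183078-18209954, plus strand) had FPKM values of 68.6, 73.4 and 67.3 in shCtrl and 70.3, 69.8 and 67.7 in shNAT10. The groups overlapped, and the log2 fold change of -0.01 had a 95% interval of -0.16 to 0.14 (limma adjusted p 0.911). FTO (chr16:53701692-54158512, plus strand) had values of 4.86, 4.19 and 4.81 in shCtrl and 4.47, 4.09 and 4.56 in shNAT10, again overlapping, with a log2 fold change of -0.08 and a 95% interval of -0.30 to 0.15 (limma adjusted p 0.557). FTO has the longest reference transcript of the 10 genes, 11766 nt, and with each library corrected by splines for GC content and the length of transcripts, a setting chosen after seeing the data, its log2 fold change was -0.30 (limma adjusted p 0.0329). Under that correction 4 of the 10 genes were called, WTAP and FTO beside YTHDF1 and YTHDF2, and 53.0% of all genes. The ratio of ALKBH5 to FTO was 14.1, 17.5 and 14.0 in shCtrl and 15.7, 17.0 and 14.9 in shNAT10, overlapping between groups (exact two-sided permutation p 0.6). ALKBH5 had no peak in either list. FTO had 1 shCtrl peak in the 3′ UTR of its longest coding transcript (chr16:54112758-54112938, fold enrichment 143) and 2 shNAT10 peaks elsewhere, 1 in the CDS (fold enrichment 36.5) and 1 in the 3′ UTR (fold enrichment 5.29), with no base in common between the groups.

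The cytoplasmic YTHDF readers held both called changes, in opposite directions. YTHDF1 (chr20:63195429-63216234, minus strand), a reader studied for its role in translation, had FPKM values of 21.2, 21.0 and 20.7 in shCtrl and 17.1, 16.3 and 15.8 in shNAT10. All 3 shNAT10 libraries lay below all shCtrl libraries, and the group mean decreased by 21.5%, a log2 fold change of -0.35 (SE 0.06, 95% interval -0.50 to -0.20, limma adjusted p 0.00511). YTHDF2 (chr1:28736621-28769775, plus strand), the reader that recruits mRNA decay, had values of 28.7, 29.8 and 29.9 in shCtrl and 36.2, 38.1 and 35.3 in shNAT10. All 3 shNAT10 libraries lay above all shCtrl libraries, and the group mean was 24.0% higher, a log2 fold change of 0.31 (SE 0.06, 95% interval 0.16 to 0.46, limma adjusted p 0.00793). Both calls held under all 16 alternative settings, with limma adjusted p from 0.00171 to 0.0367 for YTHDF1 and from 0.000644 to 0.0474 for YTHDF2. The pseudogenes YTHDF1P1 and YTHDF2P1 had at most 0.0600 and 0.667 FPKM in any library.

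YTHDF3 (chr8:63168553-63212786, plus strand), the remaining cytoplasmic member, had FPKM values of 25.4, 15.9 and 22.7 in shCtrl and 20.9, 21.5 and 21.6 in shNAT10. The shCtrl values surrounded those of shNAT10, with shCtrl replicate 2 the lowest of the 6 libraries, and the log2 fold change was 0.03 (95% interval -0.36 to 0.41, limma adjusted p 0.905) with all libraries and -0.17 (limma adjusted p 0.0535) without shCtrl replicate 2. The summed FPKM of the 3 YTHDF genes was 75.3, 66.6 and 73.3 in shCtrl and 74.2, 76.0 and 72.7 in shNAT10, which overlapped (exact two-sided permutation p 0.5). Within that sum, YTHDF1 held 28.1%, 31.5% and 28.2% in shCtrl and 23.1%, 21.5% and 21.8% in shNAT10, and YTHDF2 held 38.1%, 44.7% and 40.8% in shCtrl and 48.7%, 50.1% and 48.5% in shNAT10, neither overlapping between the groups (exact two-sided permutation p 0.1 for each, the smallest the design allows). The ratio of YTHDF2 to YTHDF1 was 1.35, 1.42 and 1.44 in shCtrl and 2.11, 2.33 and 2.23 in shNAT10, the means being 1.58-fold apart. Unequal change is all that such shares and such a ratio show, and the ratio follows from the pair of calls above. The shares are built from the same values and add no separate evidence.

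**Figure D2:**
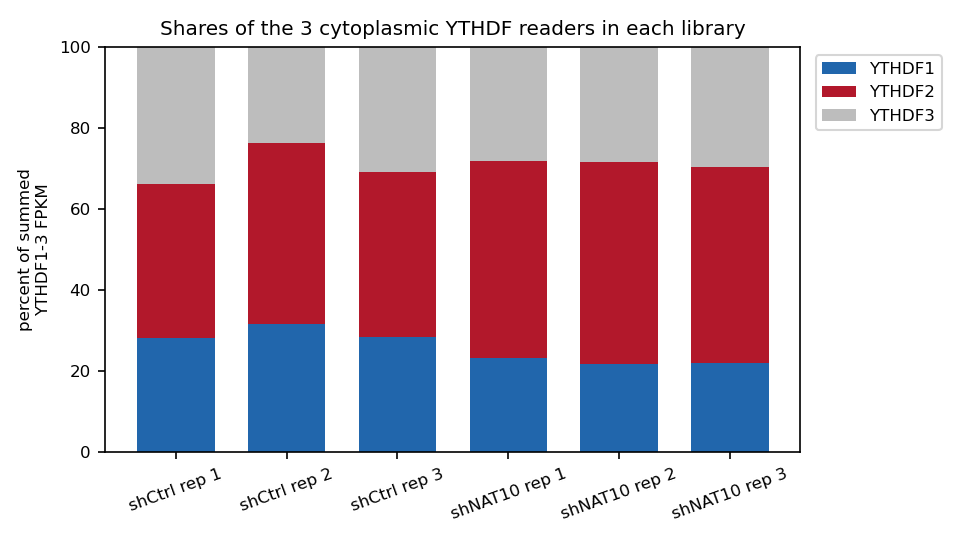
Share of the summed YTHDF1, YTHDF2 and YTHDF3 FPKM (percent, vertical axis) held by each gene in the 6 RNA-seq libraries. YTHDF1 held 28.1% to 31.5% in shCtrl and 21.5% to 23.1% in shNAT10, and YTHDF2 38.1% to 44.7% and 48.5% to 50.1%.

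YTHDC1 (chr4:68310387-68350089, minus strand), the nuclear reader, had FPKM values of 15.6, 12.3 and 15.6 in shCtrl and 14.9, 15.5 and 15.4 in shNAT10. The groups overlapped, and the log2 fold change was 0.08 (95% interval -0.16 to 0.33, limma adjusted p 0.555) with all libraries and -0.03 without shCtrl replicate 2, which was the lowest. IGF2BP2 (chr3:185643739-185825056, minus strand) had values of 45.4, 35.7 and 43.7 in shCtrl and 49.6, 48.2 and 47.8 in shNAT10. All shNAT10 libraries lay above all shCtrl libraries, with shCtrl replicate 2 again the lowest. Its log2 fold change was 0.23 (SE 0.10, 95% interval -0.0025 to 0.46, limma adjusted p 0.101), and 0.12 (limma adjusted p 0.0587) without shCtrl replicate 2.

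**Figure D3:**
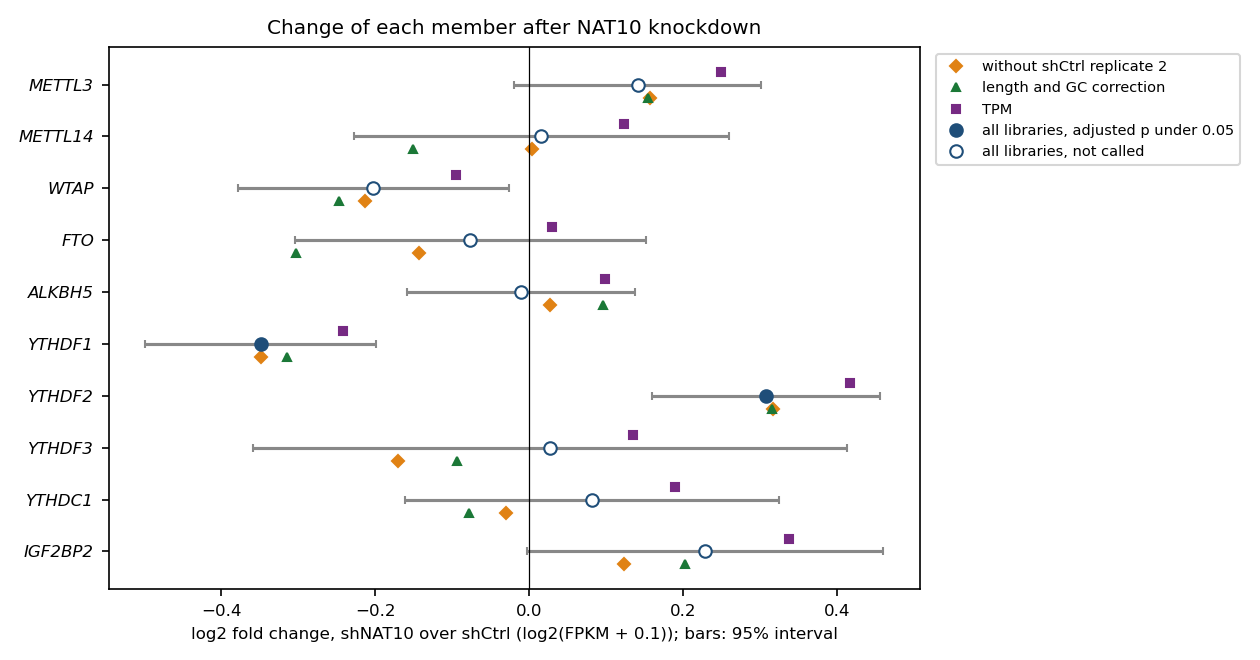
Log2 fold change of each gene, shNAT10 over shCtrl (horizontal axis, on the scale of log2(FPKM + 0.1)), with 95% intervals (bars), where filled circles passed an adjusted p under 0.05 in limma and open circles did not. Diamonds leave out shCtrl replicate 2, triangles correct each library for length and GC content, and squares use TPM, where the median of all genes moved by 0.11. YTHDF1, YTHDF2, METTL3, WTAP and IGF2BP2 kept their sign in all of these, whereas METTL14, FTO, ALKBH5, YTHDF3 and YTHDC1 changed sign in at least 1.

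The readers also differed in their acRIP peaks. YTHDF1, which fell, had no peak in either list. YTHDF2, which rose, had 3 peaks in shCtrl and 1 in shNAT10. The shCtrl peaks lay at chr1:28737010-28737219 with its midpoint in the 5′ UTR (fold enrichment 39.6), at chr1:28743068-28743278 in the CDS (6.64) and at chr1:28769296-28769476 in the 3′ UTR (4.77), and the shNAT10 peak at chr1:28743188-28743487 in the CDS (4.12) shared 91 nt with the middle one. All 4 peaks were below the median fold enrichment of their own list, which was 49.3 in shCtrl and 45.2 in shNAT10. All 4 also held the repeat, with 12, 6, 1 and 7 matches counted at every start position over the whole peak. Over whole peaks of all lengths, 52.7% of all shCtrl and 52.5% of all shNAT10 peaks with sequence held at least 1 match, beside 4 of 14 and 4 of 11 peaks on the 10 genes. The 30 bases around 1 match in each are shown because YTHDF2 was the one member that both passed the expression test and had peaks, and the capitals mark CNNCNNCNNCNN.
YTHDF2 shCtrl 5′ UTR peak, chr1:28737084-28737113, plus strand: gttcgccgcCGTCGCCGCCCGtgaggatct
YTHDF2 shCtrl CDS peak, chr1:28743249-28743278, plus strand: cagccattgCCTCCACCTCCAccacagcct
YTHDF2 shCtrl 3′ UTR peak, chr1:28769365-28769394, plus strand: ggttttgggCATCCACCCCAGaaagtggga
YTHDF2 shNAT10 CDS peak, chr1:28743258-28743287, plus strand: cctccacctCCACCACAGCCTgcccagctt
The CDS stretches of the 2 groups overlap, as their peaks do.

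YTHDF3 had 4 shCtrl peaks and 1 shNAT10 peak. Of the shCtrl peaks, 2 lay in the CDS (fold enrichments 3.97 and 11.7) and 2 in the 3′ UTR (7.74 and 88.7), and the shNAT10 peak (4.38) shared 61 nt with the first CDS peak. YTHDC1 had 1 peak in each list at the end of its CDS and the start of its 3′ UTR, sharing 121 nt, with fold enrichments of 3.96 in shCtrl and 564 in shNAT10. IGF2BP2 had 3 peaks in each list. Its shCtrl peaks all lay in the 3′ UTR with fold enrichments of 5.01, 24.4 and 11.0, and 2 of its shNAT10 peaks, at the 13.4th and 21.8th percentiles of fold enrichment in their list, overlapped them by 151 and 31 nt. The remaining shNAT10 peak on IGF2BP2 (12.3) lay on exons of a processed transcript.

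Over the 10 genes, 7 had at least 1 peak in shCtrl (14 peaks) and 6 in shNAT10 (11 peaks), beside 49.6% and 47.7% of all tested genes, and 57.3% and 55.0% of the tested genes within the range of mean FPKM of these 10. The 6 genes with a shNAT10 peak were all among the 7 with a shCtrl peak. Of the peaks on these genes, 6 of 14 in shCtrl (42.9%) and 6 of 11 in shNAT10 (54.5%) overlapped a peak of the other group by at least 1 base on the same strand, beside 25.6% and 27.4% of all peaks. Their fold enrichments ran from 3.96 to 582 in shCtrl and from 4.12 to 647 in shNAT10, and 3 of 14 and 2 of 11 lay above the median of their list. By midpoint, the 14 shCtrl peaks fell 4 in the CDS, 9 in the 3′ UTR and 1 in the 5′ UTR. The 11 shNAT10 peaks fell 4 in the CDS, 4 in the 3′ UTR and 3 off the longest coding transcript. Of all peaks placed on such a transcript, 57.3% in shCtrl and 57.4% in shNAT10 fell in the CDS. In the 3′ UTR lay 39.2% and 39.1% of them. These shares leave out peaks off the transcript, such as the 3 here. The central 120 nt held the repeat in 3 of 14 and 2 of 11 peaks, beside 35.6% and 35.8% of all peaks with sequence in the 2 lists.

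The remaining m6A writer subunits and m6A methyltransferases, 10 genes, gave 2 calls, beside 42.0% of all tested genes, and 5, beside 51.0%, without shCtrl replicate 2. RBM15B, an RNA-binding subunit of the writer complex, had FPKM values of 5.82, 5.83 and 5.37 in shCtrl and 11.2, 10.9 and 10.2 in shNAT10, rising by 89.2% (log2 fold change 0.91, SE 0.08, limma adjusted p 0.000261). PCIF1, which methylates the adenosine next to the mRNA cap, had values of 12.2, 16.4 and 14.1 in shCtrl and 8.51, 8.37 and 7.68 in shNAT10, and fell by 0.78 on the log2 scale (SE 0.12, limma adjusted p 0.00215). Neither gene overlapped between the groups, and both were called under all 16 alternatives. RBM15, the paralog of RBM15B, did not pass the test with or without shCtrl replicate 2 (log2 fold changes of 0.06 with it and -0.21 without it, limma adjusted p 0.850 and 0.0582), with 10.1, 5.26 and 8.63 FPKM in shCtrl and 7.92, 8.03 and 8.17 in shNAT10. VIRMA, the scaffold of the complex, and ZC3H13, which keeps it in the nucleus, had log2 fold changes of 0.16 and 0.38 (limma adjusted p 0.294 and 0.0709), and CBLL1 one of 0.13 (limma adjusted p 0.215). Without shCtrl replicate 2, ZC3H13 had 0.22 and was called (limma adjusted p 0.0419), and VIRMA had 0.04 and was not (limma adjusted p 0.628). Of the 10 genes of this list, 4 had an acRIP peak in shCtrl and 4 in shNAT10, beside 49.6% and 47.7% of all tested genes. ZC3H13 (6 peaks) and VIRMA (1 peak) had peaks in shCtrl alone, as 15.8% of all tested genes did. Another 2 genes, PCIF1 (1 peak) among them, had peaks in shNAT10 alone, as 13.9% did. RBM15B had 2 peaks in shCtrl and 1 in shNAT10.

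Of 17 further m6A readers and reader partners, 8 were called (47.1%, beside 42.0% of all tested genes), with a median log2 fold change of 0.24. Of these calls 7 were higher and 1 lower, beside 20.8% and 21.2% of all tested genes. The count without shCtrl replicate 2 was 12 (70.6%, beside 51.0%), with 10 higher and 2 lower. The largest rises were those of EIF3A, a translation initiation factor subunit (0.61), SND1, a tudor-domain nuclease (0.55), FXR1, a paralog of the fragile X protein (0.46), IGF2BP3, a paralog of IGF2BP2 (0.40), and UPF1, the helicase of nonsense-mediated decay (0.34). Their limma adjusted p values were 0.0034, 0.00185, 0.00175, 0.0174 and 0.00696. Under the length and GC spline correction their log2 fold changes were 0.44, 0.61, 0.26, 0.32 and 0.39, and FXR1 was not called (limma adjusted p 0.0756). IGF2BP3 had FPKM values of 38.6, 31.5 and 40.3 in shCtrl and 47.5, 48.7 and 48.5 in shNAT10, with no overlap. The single fall was RIDA (named HRSP12 in older work), which links YTHDF2 to an RNA-cleaving complex, with 8.62, 12.7 and 12.8 FPKM in shCtrl and 6.87, 7.16 and 7.38 in shNAT10 (log2 fold change -0.64, SE 0.15, limma adjusted p 0.0154). CNOT1, the scaffold of the deadenylase that YTHDF2 recruits, had a log2 fold change of -0.07 and did not pass the test (limma adjusted p 0.732). Without shCtrl replicate 2 CNOT1 was called, with -0.24 (limma adjusted p 0.0362).

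Of 12 enzymes and readers of 5-methylcytidine and 1-methyladenosine 6 were called, beside 42.0% of all tested genes, 2 higher and 4 lower, with a median log2 fold change of -0.16, and 7 (58.3%, beside 51.0%) without shCtrl replicate 2. TRMT6, a subunit of the tRNA 1-methyladenosine methyltransferase, had 15.1, 15.1 and 14.9 FPKM in shCtrl and 8.37, 7.81 and 8.66 in shNAT10 (log2 fold change -0.86, SE 0.07, limma adjusted p 0.000229), whereas its catalytic partner TRMT61A did not pass the test (0.02). NSUN2 and NSUN5, both 5-methylcytidine methyltransferases, fell by 0.29 and 0.53 on the log2 scale (limma adjusted p 0.00857 and 0.0425), and NSUN5 by 0.33 without shCtrl replicate 2 (limma adjusted p 0.0119). TRMT10C, a mitochondrial tRNA methyltransferase, fell by 0.36 (limma adjusted p 0.0133). The called rises were TRMT61B, a mitochondrial 1-methyladenosine methyltransferase (0.48, limma adjusted p 0.0131), and ALKBH3, a demethylase of 1-methyladenosine (0.31, limma adjusted p 0.0166).

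Of 13 pseudouridine synthases 5 were called (38.5%, beside 42.0% of all tested genes), 2 higher and 3 lower. Without shCtrl replicate 2 the count was 9 (69.2%, beside 51.0% of all tested genes). DKC1, the synthase of H/ACA ribonucleoproteins, had 47.0, 51.3 and 48.4 FPKM in shCtrl and 86.4, 87.3 and 88.0 in shNAT10 (log2 fold change 0.83, SE 0.06, limma adjusted p 0.000163), with a wide gap between groups. TRUB1, which modifies tRNA and mRNA, rose by 0.60 on the log2 scale, and PUS10, TRUB2 and RPUSD3 fell by 0.60, 0.46 and 0.29 (limma adjusted p 0.0103, 0.0388, 0.00923 and 0.0450). Of 11 RNA editing, cap and 2-O-methylation enzymes 3 were called (27.3%, beside 42.0% of all tested genes), 1 higher and 2 lower. Without shCtrl replicate 2 the count was 8 (72.7%, beside 51.0% of all tested genes), 4 in each direction. ADAR, the adenosine-to-inosine editor, had 65.7, 46.8 and 57.4 FPKM in shCtrl and 34.5, 32.0 and 34.8 in shNAT10 (log2 fold change -0.73, SE 0.12, limma adjusted p 0.00369). METTL1, a tRNA 7-methylguanosine methyltransferase, fell by 0.74 (limma adjusted p 0.00237), and RNMT, the mRNA cap methyltransferase, rose by 0.43 (limma adjusted p 0.0208).

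Over all 63 genes of these lists, 24 were called (38.1%), 13 higher and 11 lower, beside the 42.0% of all tested genes, and none changed by more than 1 on the log2 scale. The count depended on the libraries, and so did that over all 12982 tested genes, which was 5450 with all libraries. Without shCtrl replicate 2, 41 genes of the lists and 6621 of all tested genes were called. The 2 counts were 15 and 3870 without shCtrl replicate 3, and 15 and 3660 without shNAT10 replicate 1. They were 14 and 3671 without shNAT10 replicate 2. RBM15B, PCIF1, EIF3A, SND1, UPF1, TRMT6, DKC1, TRUB1 and METTL1 were called under all 16 alternatives, and TRUB2 and ADAR under all 15 that tested them. Of 16 alternatives, FXR1 and NSUN2 were called under 15, TRMT61B and TRMT10C under 14, IGF2BP3, RIDA and ALKBH3 under 13, RNMT under 12, NSUN5 under 10 and RPUSD3 under 7, and PUS10 was called under 7 of 15. Peaks were listed for 34 of the 63 in shCtrl and for 32 in shNAT10, beside 49.6% and 47.7% of all tested genes. THUMPD1, the adaptor that guides NAT10 to tRNA, had 18.5, 15.1 and 18.3 FPKM in shCtrl and 14.5, 13.4 and 14.3 in shNAT10 (log2 fold change -0.29, limma adjusted p 0.0445), a call that was lost in 9 of 16 alternatives.

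**Figure D4:**
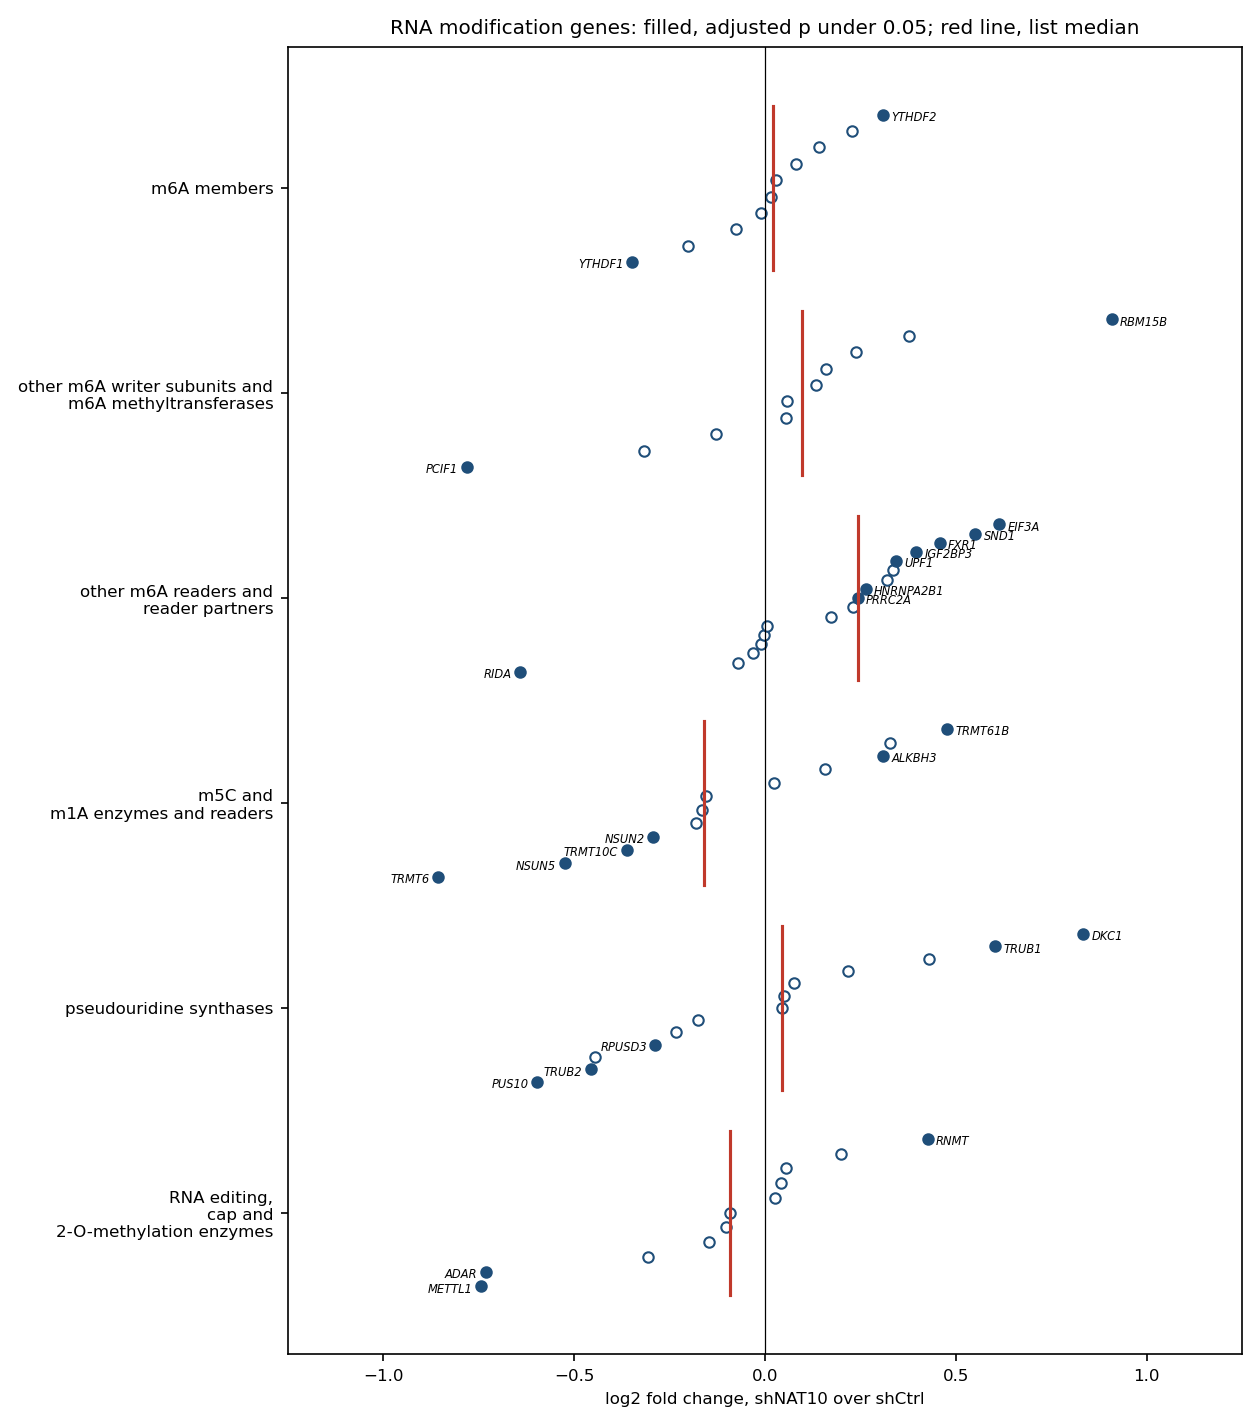
Log2 fold change, shNAT10 over shCtrl (horizontal axis), of every gene of the 10 m6A members and the 5 lists of RNA modification genes, sorted within each list, with called genes filled and named and the list median as a red line. The members span -0.35 to 0.31, within the -0.86 to 0.91 of the lists.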

How the data were processed

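For RNA-seq, the authors deposited FPKM values per gene for 3 shCtrl and 3 shNAT10 libraries. The submitters' processing notes name HISAT2 2, HTSeq 0.11.0, DESeq2 1.22.2 and GRCh38, with no role stated. The acRIP-seq peaks came as 1 list for each group, in which the authors deposited a fold enrichment, a ratio taken here as IP to input, and a p-value. The deposited lists also give the logarithm of the p-value and of the false discovery rate. The peak caller is not given in the sources used here.

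The 12982 genes that reached an FPKM of 1 in 3 or more libraries entered limma 3.58.1 (R 4.3.3) as log2(FPKM + 0.1). A trend of variance with mean was fitted, and p-values were adjusted by Benjamini-Hochberg over all of them. Fold changes on this scale understate the change of low genes. Genes with an adjusted p under 0.05 were called. Single values were compared by exact two-sided permutation tests (SciPy 1.17.1). Python 3.11.15, NumPy 2.4.6, pandas 2.3.3 and matplotlib 3.10.9 were used. Samples were grouped by their labels, and no column was left without a group.

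Lengths, positions and sequences came from GENCODE release 29, which holds 58039 of the 58302 genes. With the longest transcript of each gene as its length, 97.1% of values lay within 0.02 of a whole number of reads, and the recovered reads entered limma's voom as an alternative. Depth limits the precision of low genes: METTL14, the lowest of the 10, had 364 to 524 recovered reads per library. The study's methods name a stranded library kit for RNA-seq, but the strand setting of the counting is not given in the sources used here. Genes on the opposite strand cover 6.58% of the exon bases of METTL3 (TOX4), 6.81% of WTAP (SOD2) and 11.2% of ALKBH5 (AC087164.1). If strand was ignored in counting, reads from such genes may not be told apart.

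Each peak was placed on the longest coding transcript by its midpoint and counted as shared at 1 base on the same strand. The repeat was searched in the central 120 nt of peaks. Named genes are the 10 members, NAT10, THUMPD1, genes of the lists with the largest called changes (up to 5 rises and 5 falls each) and genes needed to describe a complex. The members and lists were chosen with earlier results of these data known. The alternatives were a pseudocount of 1, no filter, median centring, TPM, quantile normalization, an FPKM minimum of 5, a replicate block, no trend, voom, each library left out in turn, the upper 50% of peaks by fold enrichment or by p-value, a reciprocal overlap of 50%, the transcript with the longest CDS and, added after seeing the data, a spline correction for length and GC content. The main limma fit was tested on simulated data, and the count of overlapping bases on small invented intervals.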

Additional observations from a re-analysis of the deposited data

How the results depend on the processing

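YTHDF1 and YTHDF2 were called by limma under all 16 alternative settings, and NAT10 likewise. TPM moved the median log2 fold change of all genes by 0.11, and 61.8% of the genes called were higher under it, against 49.5% with FPKM, so changes under it are best read against that shift. Leaving out 1 library moved the genes called by limma from 5450 to between 3550 (without shNAT10 replicate 3) and 6621 (without shCtrl replicate 2), and the called genes of the 5 lists from 24 to between 14 and 41, with 15 without shCtrl replicate 3, 15 without shNAT10 replicate 1, 14 without shNAT10 replicate 2 and 41 without shCtrl replicate 2. The cause was not tested. The length and GC spline correction called 4 of the 10 members (WTAP and FTO added) and 43 genes of the lists, beside 53.0% of all genes.

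Members whose log2 fold change turned were all uncalled by limma. Under the spline correction METTL14 had -0.15, ALKBH5 0.10, YTHDF3 -0.093 and YTHDC1 -0.077. Under TPM, FTO had 0.030 and ALKBH5 0.10, and voom gave ALKBH5 0.0061. With 1 library left out, METTL14 ranged from -0.029 to 0.092, ALKBH5 from -0.035 to 0.027, YTHDF3 from -0.17 to 0.17 and YTHDC1 from -0.029 to 0.14, with the extremes on the negative side of YTHDF3 and YTHDC1 reached without shCtrl replicate 2. METTL3 was called under TPM (0.25, limma adjusted p 0.0250), WTAP without shCtrl replicate 2 (-0.21) and IGF2BP2 without shCtrl replicate 1 (0.30, limma adjusted p 0.0466).

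Libraries with the same replicate number shared little, as their deviations from the group means correlated at -0.04, 0.06 and 0.11 across genes. The labels do not say whether they were prepared in pairs, and such correlations cannot settle it. With the replicate number as a block, limma called 5127 genes, 2 of the 10 members and 25 genes of the lists.

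In the upper 50% of each list by fold enrichment, 3 of the 14 shCtrl and 2 of the 11 shNAT10 peaks on the members remained, and in the 50% with the lowest p-values 7 and 4. A reciprocal overlap of at least 50% left 2 shared peaks in each list. The transcript with the longest CDS left 4 CDS peaks in each group. Without replicates or reads for the peaks, a gene missing from a list cannot be told apart from one below the caller's threshold.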
